A study of Mus musculus with 2 samples.

Results

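Translation initiation factors, elongation factors and aminoacyl-tRNA synthetases were compared between FoxO1 knockout (KO) and FoxO1 heterozygous KO hypothalamic neurons that express Agouti-related peptide (AgRP neurons, which drive feeding). FoxO1 is a forkhead transcription factor, which leaves the nucleus when insulin signals. The genes were taken from an exon-level microarray by their symbols: Eif1 to Eif6, Eef1 and Eef2 with any ending, and the synthetase symbols that end in ars, with or without a 2, plus Farsa, Farsb and Eprs. The 4E-binding protein genes Eif4ebp1 and Eif4ebp2 were left out of this set. This choice gave 98 of the 22296 gene symbols named by probe sets with a single symbol. The rule itself used no measured value, but it was set with earlier results of these data known.

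Both groups were sorted by FACS, and RNA of each was measured on 1 array, 1 for KO and 1 for heterozygous KO. The mice were littermates matched for sex and age, on a mixed background. By label each array was of an altered FoxO1 genotype, KO or heterozygous KO, and wild-type neurons were not analysed here. The labels do not give the state of the FoxO1 alleles in each cell. The sources used here do not say what drives the deletion, how old the mice were, how many stand behind an array or whether they were pooled.

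Translation starts when eIF2 brings the initiator tRNA to the small ribosomal subunit, eIF3 holds that subunit open for the mRNA, and the eIF4F complex recognises the mRNA cap and unwinds the leader. Elongation factor eEF1A then delivers each charged tRNA and eEF2 moves the ribosome along, while aminoacyl-tRNA synthetases load every tRNA with its amino acid, one set in the cytosol and another in mitochondria. Cells lower overall initiation by phosphorylating eIF2 through 1 of 4 kinases, the step known as the integrated stress response, and mTOR acts on the cap complex and on elongation.

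Every value is on the log2 scale. A gene's difference is the median, over its probe sets, of the KO value minus the heterozygous KO value, and its level on an array is the median of the same probe sets. Since each median was taken by itself, a difference and the gap between the 2 levels can disagree. Probe sets counted only if the mean of their 2 values was at least 5.86, the median over all probe sets, and a gene was evaluated with at least 3 such probe sets. Levels were not compared between genes, since probe sets differ in brightness for reasons of their own. With 1 array per genotype no test was possible, and the SD given beside a difference is over a gene's probe sets, not over mice. In sorted material of this kind, fewer cells of a type and less RNA per cell cannot be told apart.

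Of the 98 symbols, 96 were evaluated, among 16639 evaluated genes in all. Mars2 and Eif5al3 had 2 usable probe sets each and were not evaluated. Of the symbols, 8 are older names, and Eif2c1 to Eif2c4 among them are the Argonautes Ago1 to Ago4, which carry small RNAs and are not initiation factors. Dars and Eif1 were not among the matched symbols and are not analysed here. The median evaluated member differed by -0.08, with quartiles of -0.30 and 0.12, and that median became 0.03 when differences were centred on the median of all evaluated genes, which was -0.11. Leaving out the Argonautes gave a median of -0.08 over 92 genes. Of the 96 members, 52 lay above the all-gene median, and 41 (42.7%) lay above 0, against 34.8% of all evaluated genes.

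A difference of at least 2-fold with at least 75% of the probe sets on the same side was reached by 2 members in the higher direction, Eef1e1 and Nars2, or 2.08% of the members against 1.13% of all evaluated genes. No member was at least 2-fold lower, against 1.12% of all genes. At 1.5-fold, 3 members were higher (3.13%, against 3.28% of all genes) and 3 were lower (3.13%, against 4.90%). At least 75% of probe sets were higher in KO for 14 members, or 14.6%, where the share over all genes was 9.56%. At least 75% were lower for 19 members, or 19.8%, where the share over all genes was 23.3%. After centring on the all-gene median these counts became 15 higher and 9 lower (15.6% and 9.38% of the members), against 15.6% and 13.5% of all genes. None of these shares was tested, and those at 2-fold and 1.5-fold rest on at most 3 members each.

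**Figure D1:**
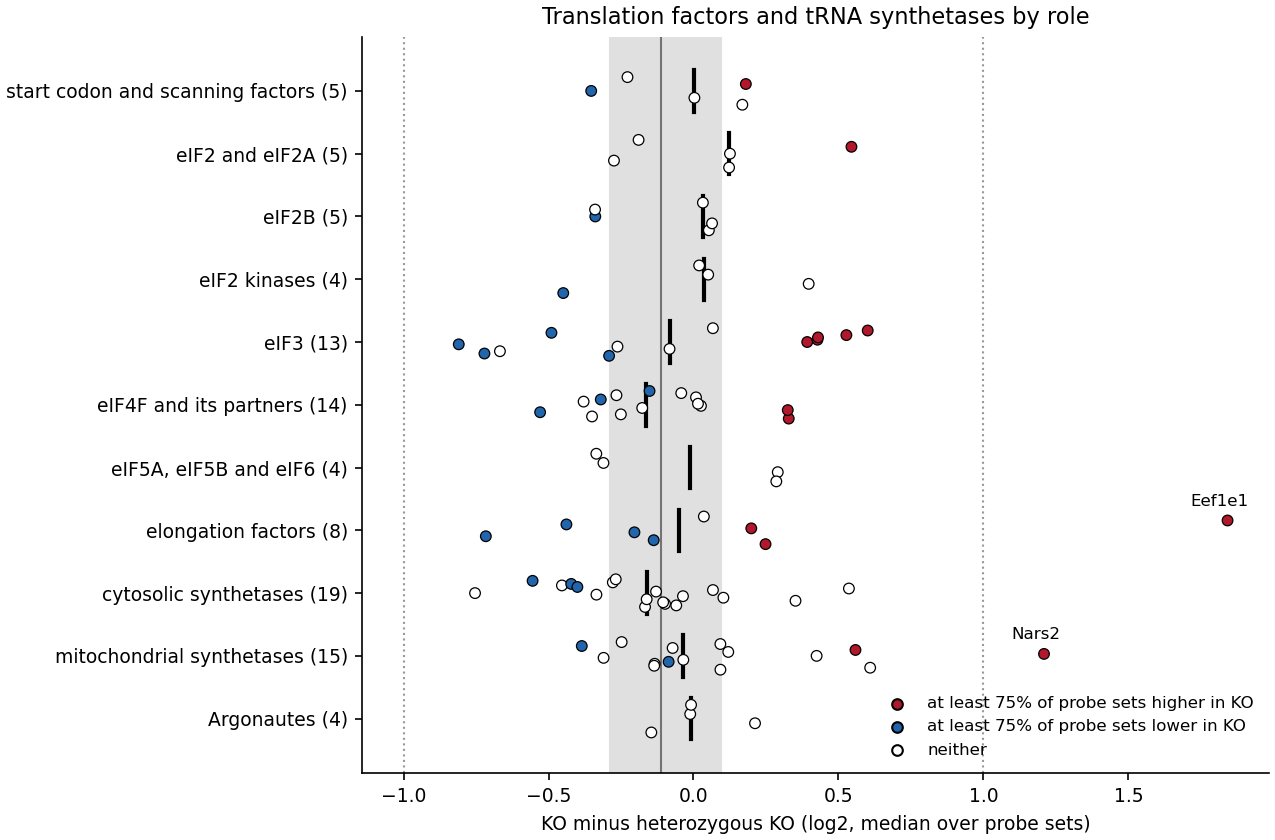
Difference between the KO and the heterozygous KO array (log2, horizontal axis) for each of the 96 evaluated genes, 1 point per gene, grouped by role with the number of genes in parentheses. Short black bars are group medians, the grey line and band are the median and quartiles of all 16639 evaluated genes, and the dotted lines mark 2-fold; Eef1e1 and Nars2 lie past the upper one.

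Eef1e1 encodes AIMP3, also called p18, a scaffold protein of the complex that holds several cytosolic synthetases, and it takes its symbol from a likeness to elongation factors. It had the largest difference of the members, 1.84 (SD 1.35 over 6 probe sets), which is 3.59-fold higher in KO. The gene level was 10.05 in KO and 7.57 in heterozygous KO. The single values show where this comes from. The 6 probe sets of Eef1e1 read 9.96, 11.34, 10.20, 6.07, 7.55 and 10.15 on the KO array, against 8.02, 9.59, 7.67, 7.07, 6.49 and 7.48 on the heterozygous KO array, in the same order. Of the 6, 5 were higher in KO, by 1.06 to 2.67, and the fourth was lower by 1.00, so the 2 arrays overlap over the probe sets. Other scaffolds of the same complex had smaller differences. Scye1, the older symbol of Aimp1, differed by 0.39 (SD 1.34) with levels of 9.09 in KO and 8.22 in heterozygous KO, and Jtv1, the older symbol of Aimp2, differed by 0.02 (SD 1.08).

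Nars2 encodes the mitochondrial asparaginyl-tRNA synthetase. Its level was 7.28 in KO and 5.94 in heterozygous KO, the second close to the floor of 5.86. The difference was 1.21 (SD 0.98) over 10 of its 19 probe sets, 9 of them higher in KO, which is 2.31-fold. The 10 used probe sets of Nars2 spanned 6.51 to 8.36 in KO and 5.15 to 7.99 in heterozygous KO, so the arrays overlap. Over all 19 probe sets with no floor the difference was 1.33. Keeping only the 6 probe sets that reached the floor on both arrays gave 0.33, and the mean over probe sets gave 0.98, so the 2-fold call depended on how dim probe sets were handled.

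**Figure D2:**
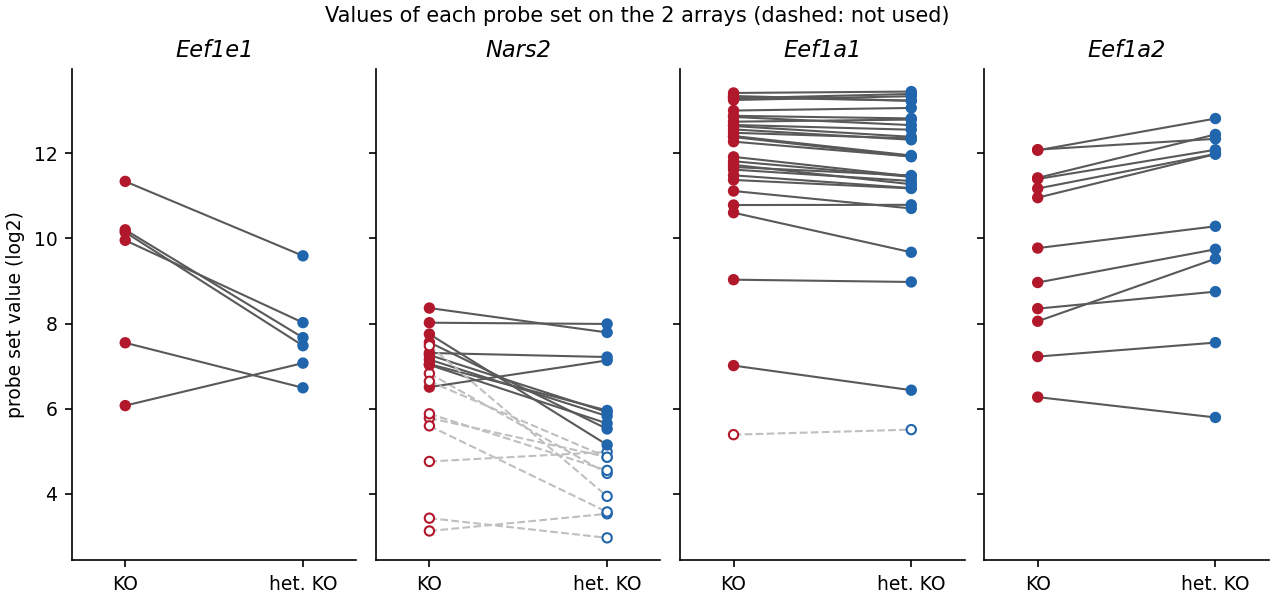
Value of every probe set (log2, vertical axis) on the KO and the heterozygous KO array for Eef1e1, Nars2, Eef1a1 and Eef1a2, with a line joining the same probe set on both arrays and dashed lines for probe sets below the floor. On the KO array 5 of 6 Eef1e1 probe sets and 9 of 10 used Nars2 probe sets are higher, Eef1a1 lines are nearly level, and 11 of 12 Eef1a2 lines are lower in KO.

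The sequence just before the RefSeq start of both genes is given because they were the members past 2-fold (build GRCm38.p6, 100 bases ending at the base before the start, in the direction of the gene). Eef1e1 lies at chr13:38659029-38659128 on the minus strand and Nars2 at chr7:96951427-96951526 on the plus strand. No capitals are used here.
Eef1e1: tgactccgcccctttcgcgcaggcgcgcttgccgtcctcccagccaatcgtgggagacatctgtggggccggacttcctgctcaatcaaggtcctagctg
Nars2: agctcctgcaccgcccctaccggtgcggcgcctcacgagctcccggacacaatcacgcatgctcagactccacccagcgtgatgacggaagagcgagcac

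Among the 8 elongation factor symbols the median was -0.05, and 0.06 after centring, with 4 above 0 and 4 below. At least 75% of probe sets were higher for 3 of them (37.5%, against 9.56% of all genes) and lower for 4 (50%, against 23.3%), and after centring Eef1a2 alone was lower. The 2 forms of eEF1A, the factor that brings charged tRNA to the ribosome, stood on opposite sides. Eef1a1, the form found in most tissues, had a level of 12.39 in KO and 11.94 in heterozygous KO, with a difference of 0.20 (SD 0.24, the smallest of the members) and 22 of 28 probe sets higher. Eef1a2, the form of adult neurons and muscle, had 10.37 in KO and 11.13 in heterozygous KO, with a difference of -0.72 (SD 0.49) and 11 of 12 probe sets lower, a 1.64-fold difference. Eef1a2 kept its sign in 10 alternative settings, between -0.75 and -0.61, and Eef1a1 stayed between 0.19 and 0.31. The exchange factors that recharge eEF1A with GTP were also divided. All 9 probe sets of Eef1b2, which encodes the catalytic eEF1B alpha subunit, were higher in KO, with a small difference of 0.25 (SD 0.27). Eef1d, another exchange subunit, differed by -0.20 (SD 0.42) with 15 of 18 probe sets lower, and Eef1g, the structural subunit, by -0.14 (SD 0.41) with 18 of 23 lower. Eef2, the translocase, had a level of 11.44 in KO and 11.69 in heterozygous KO. Its difference was -0.44 (SD 0.41), and 21 of 23 Eef2 probe sets were lower in KO. Eef2k, the kinase that switches eEF2 off, differed by 0.04 (SD 0.76), with levels of 6.86 in KO and 7.08 in heterozygous KO.

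The values of the 13 subunits of eIF3, the largest initiation factor, spread more widely than those of any other role group except the elongation factors. The median was -0.08, and 0.03 after centring, while single subunits ran from -0.81 to 0.60 (SD over subunits 0.51). At least 75% of probe sets were higher for 5 of the 13 (38.5%, against 9.56% of all genes) and lower for 4 (30.8%, against 23.3%). After centring the same 5 were higher and 2, Eif3d and Eif3g, were lower. Eif3l had a level of 9.34 in KO and 8.25 in heterozygous KO, with a difference of 0.60 (SD 0.95) and 13 of 17 probe sets higher. Eif3i differed by 0.53 (SD 0.70) with 13 of 14 higher, and Eif3h by 0.43 (SD 0.44) with 12 of 15 higher. Eif3m at 0.43 and Eif3e at 0.39 made up the rest of the higher subunits, with 11 of 14 and 17 of 20 probe sets higher. On the other side, Eif3b, the scaffold that binds the ribosome near the mRNA entry, had a level of 8.84 in KO and 9.74 in heterozygous KO. The Eif3b difference was -0.81 (SD 0.92), the lowest of the members, with 17 of 20 probe sets lower. Eif3g, an RNA-binding partner of Eif3b and Eif3i, had 7.89 in KO and 9.13 in heterozygous KO, with a difference of -0.72 (SD 0.74) and 10 of 11 probe sets lower. Eif3d, which can itself bind the mRNA cap, differed by -0.49 (SD 0.60) with 18 of 21 lower, and Eif3j, a loosely held subunit, by -0.29 (SD 0.65) with 16 of 21 lower. Eif3f differed by -0.67 (SD 0.70) but with only 6 of 10 probe sets lower. Eif3a, Eif3c and Eif3k lay nearer 0, at -0.26, -0.08 and 0.07.

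The mammalian eIF3 core is an octamer of subunits with PCI or MPN domains (Eif3a, Eif3c, Eif3e, Eif3f, Eif3h, Eif3k, Eif3l and Eif3m). The other 5 subunits, Eif3b, Eif3d, Eif3g, Eif3i and Eif3j, sit around it. The octamer had a median of 0.23, with 5 of 8 subunits above 0, and 4 of 8 had at least 75% of probe sets higher and none lower. The other subunits had a median of -0.49, with 1 of 5 above 0, Eif3i. Of these 5, 4 had at least 75% of probe sets lower, and 2 after centring, while the octamer's counts were 4 and 0 under both scalings. Over all genes the shares were 9.56% higher and 23.3% lower, or 15.6% and 13.5% after centring. This grouping of the subunits was not tested. Every subunit except Eif3c kept its sign in all 10 alternative settings, and Eif3c ranged from -0.23 to 0.03.

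**Figure D3:**
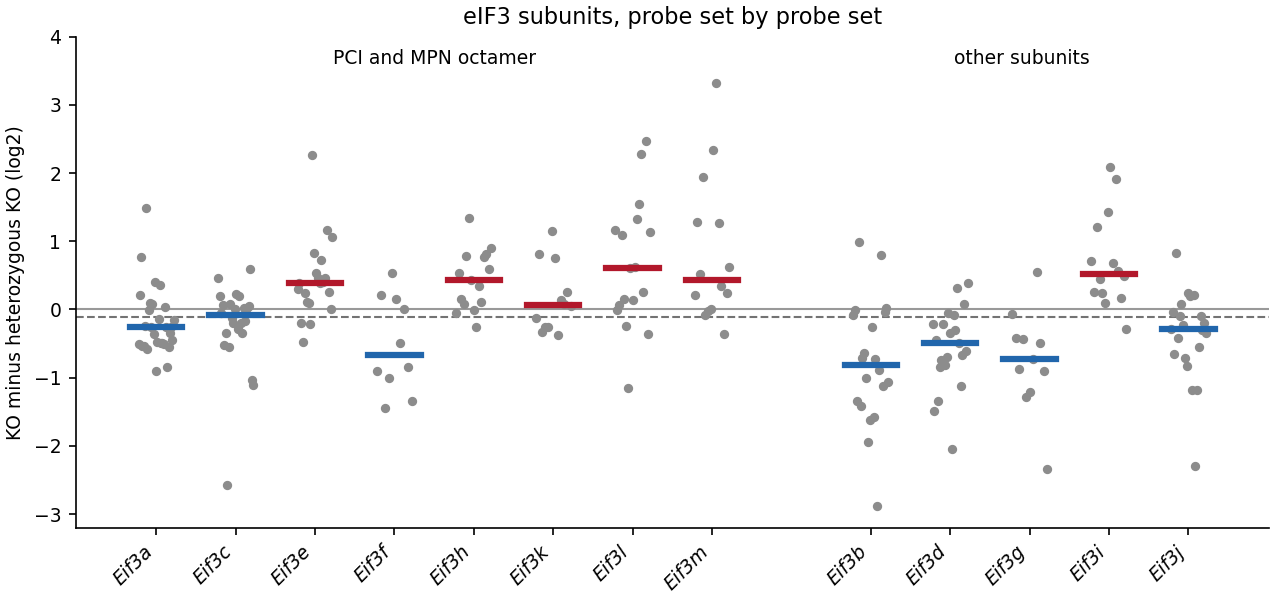
Difference between the KO and the heterozygous KO array (log2, vertical axis) for each used probe set (grey points) of the 13 eIF3 subunits, the 8 octamer subunits to the left and the other 5 to the right. Bars are gene medians, red above 0 and blue below, and the dashed line is the median of all genes, -0.11; the bars of Eif3b, Eif3d, Eif3g and Eif3j lie below it and that of Eif3i lies above.

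The 5 genes grouped by symbol as factors of start codon choice and scanning ran from -0.35 for Eif1ad to 0.18 for Eif1b. Eif1ad encodes an eIF1A-like protein, and its place in this group rests on its symbol. Of the 13 Eif1ad probe sets, 12 were lower in KO, 3 of them at least 4-fold (SD 1.03, levels 7.48 in KO and 8.35 in heterozygous KO). Eif5, the GTPase activator that triggers release of eIF2, differed by 0.17 (SD 0.75) and Eif1a by -0.23 (SD 0.46). Eif1ay, the older symbol of Eif1ax, had 10 of 19 probe sets higher and lay at 0.

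Of the 3 subunits of eIF2, which carries the initiator tRNA, alpha and beta lay slightly above 0 and the gamma genes below it. The alpha and beta signs depended on the floor. With no floor Eif2s1 (alpha) lay at -0.14 and Eif2s2 (beta) at -0.07. With both arrays at or above the floor, these values were -0.13 and -0.23. Eif2s1, the alpha subunit that the stress kinases phosphorylate, had 8.37 in KO and 8.22 in heterozygous KO, with a difference of 0.12 (SD 0.91) and 8 of 16 probe sets higher. Eif2s2, the beta subunit, gave 0.13, but its 8 probe sets split evenly between the directions, and their SD was 1.81. Of the gamma subunit genes, Eif2s3x on the X chromosome differed by -0.27 (SD 0.36) and Eif2s3y on the Y chromosome by -0.19 (SD 1.36). Both gamma genes had more probe sets lower than higher in KO. Eif2a, a separate factor that can also bring initiator tRNA to the ribosome, had 9.61 in KO and 8.40 in heterozygous KO. Its difference was 0.54 (SD 0.90), with 14 of 17 probe sets higher in KO.

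Among the subunits of eIF2B, which recharges eIF2 with GTP and is the point where phosphorylated eIF2 blocks initiation, Eif2b1, Eif2b2 and Eif2b3 lay at 0.05, 0.06 and 0.03. All 14 used probe sets of Eif2b4 were lower in KO, with levels of 6.61 in KO and 7.37 in heterozygous KO and a difference of -0.34 (SD 0.62). Eif2b5, the catalytic subunit, also differed by -0.34 (SD 0.52), with 10 of 14 lower. The Eif2b1 value is a poor summary of that gene. Of its 11 used probe sets, 3 were more than 4-fold higher in KO while 5 were lower, and the SD was 1.40.

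The eIF2 kinases covered a range from -0.45 to 0.40. Eif2ak1 encodes HRI, the kinase that heme shortage and mitochondrial stress activate. It had levels of 7.52 in KO and 7.51 in heterozygous KO, a difference of -0.45 (SD 0.69) and 9 of 12 probe sets lower. Eif2ak2, which encodes the double-stranded RNA sensor PKR, differed by 0.40 (SD 0.57) with 5 of 7 probe sets higher. The Eif2ak2 levels went the other way, at 6.91 in KO and 7.37 in heterozygous KO. Over all 17 of its probe sets with no floor, the difference was 0.01. Eif2ak4, which encodes the amino acid sensor GCN2, differed by 0.05 (SD 0.92) over 38 probe sets. Eif2ak3 encodes PERK, the kinase of endoplasmic reticulum stress, and its difference was 0.02 with levels of 6.98 in KO and 6.95 in heterozygous KO. That value hides the widest disagreement among probe sets of any member, an SD of 2.10 over 22 probe sets, 11 higher and 11 lower. One Eif2ak3 probe set read 10.83 in KO and 6.67 in heterozygous KO, and another read 3.35 in KO and 8.42 in heterozygous KO. No exon is named for a probe set in the sources used here, and whether this disagreement follows the transcript was not tested.

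The targets of the integrated stress response gave a median of -0.11 over 18 of 19 listed genes, close to the all-gene median. None was past 2-fold. Of the 18, 4 lay above 0 and 14 (77.8%) below, where 65.2% of all evaluated genes lay below 0. Atf4, the transcription factor made when eIF2 is phosphorylated, differed by -0.02 (SD 0.14). The highest was Ddit4, an mTOR inhibitor, at 0.54 (SD 1.38) over 3 probe sets. The lowest was Psat1, an enzyme of serine synthesis, at -0.99 (SD 1.23) with 15 of 16 probe sets lower and levels of 6.87 in KO and 8.34 in heterozygous KO.

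The cap-binding complex eIF4F and its partners had a median of -0.16, and -0.05 after centring, over 14 genes, 5 above 0 and 9 below. Its helicase subunits stood on the higher side. Eif4a1 had 10.31 in KO and 10.05 in heterozygous KO, with a difference of 0.33 (SD 0.40) and 15 of 18 probe sets higher. Eif4a2, the form common in brain, had 11.29 in KO and 10.79 in heterozygous KO, also with a difference of 0.33 (SD 0.61) and 15 of 17 higher. Eif4a3, which belongs to the exon junction complex and not to eIF4F, differed by 0.03. The scaffolds that join the helicase to the cap-binding protein stood on the lower side. Eif4g1, Eif4g2 and Eif4g3 differed by -0.35, -0.27 and -0.38, with 32 of 43, 25 of 36 and 41 of 59 probe sets lower, so none reached 75%. Eif4g2 encodes a relative that lacks the cap-protein binding site. Eif4b, a helicase cofactor, differed by -0.32 (SD 0.29) with 10 of 12 lower, and Eif4h, its relative, by -0.18 (SD 1.00).

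Of the cap-binding proteins themselves, Eif4e, Eif4e2 and Eif4e1b lay near 0 and Eif4e3 lay lower. Eif4e differed by 0.01 (SD 0.53) although its levels were 8.72 in KO and 9.49 in heterozygous KO, and 9 of its 17 probe sets were higher. Eif4e2, a cap-binding repressor, differed by 0.02 (SD 1.42) and Eif4e3 by -0.25 (SD 1.13). Eif4e1b, an oocyte form, lay at -0.04, and all 4 probe sets of Eif4ebp3, a 4E-binding protein, were lower, with a difference of -0.15. Eif4enif1, a protein that carries eIF4E into the nucleus and represses mRNAs, was the lowest of the group at -0.53 (SD 0.88), with 21 of 28 probe sets lower and levels of 8.49 in KO and 9.21 in heterozygous KO. Regulators outside the set gave a median of -0.13 over 10 of 12 genes, 8 of them (80%) below 0, against 65.2% of all evaluated genes. The lowest was Eif4ebp2, the main 4E-binding protein of brain, at -0.66 (SD 0.43) with 16 of 17 probe sets lower and levels of 6.92 in KO and 7.91 in heterozygous KO. Rps6kb1, the S6 kinase, was the highest at 0.23. The poly(A) binding and termination genes had a median of -0.13 over 8. Paip1, a partner of the poly(A)-binding protein, differed by 0.96 (SD 1.04) with 14 of 16 probe sets higher, and Abce1, which splits ribosomes after termination, by -0.72 (SD 0.73) with 19 of 22 lower.

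Of the late factors, Eif5b, which joins the ribosomal subunits, differed by 0.29 (SD 0.60) with 22 of 31 probe sets higher. Eif6, which keeps the large subunit apart until it is needed, differed by -0.34 (SD 0.85). Eif5a, the hypusine-containing factor that helps stalled ribosomes, differed by 0.29 (SD 0.53), although its levels were 8.91 in KO and 9.04 in heterozygous KO. Its second form Eif5a2 differed by -0.31 (SD 0.92) with 4 of 7 probe sets lower. With no floor the Eif5a2 difference was 0.13. The 4 Argonautes lay between -0.15 for Eif2c1 and 0.21 for Eif2c2, with none near 75% of probe sets on one side.

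The 19 cytosolic synthetases had a median of -0.16, and -0.05 after centring, and 15 of the 19 (78.9%) lay below 0, where 65.2% of all evaluated genes did. None had 75% of probe sets higher in KO, and 3 (15.8%) had 75% lower, below the 23.3% of all genes. After centring 1 was left, Cars. Yars, for tyrosine, was the lowest at -0.75 (SD 0.83), with levels of 8.19 in KO and 9.25 in heterozygous KO and 12 of 17 probe sets lower. Cars, for cysteine, differed by -0.55 (SD 1.23) with 16 of 21 lower, and Nars, for asparagine, by -0.42 (SD 0.43) with 15 of 20 lower. Tars, for threonine, had 7.21 in KO and 8.33 in heterozygous KO, with a difference of -0.40 (SD 0.98) and 14 of 18 lower. At the other end, Mars, for methionine, differed by 0.54 (SD 1.16) with 15 of 24 probe sets higher. The Mars levels went the other way, at 7.82 in KO and 7.98 in heterozygous KO. Its difference ran from 0.15 to 0.65 over the alternative settings. Farsb, a subunit of the phenylalanine enzyme, differed by 0.35 (SD 0.75). Farsa, the partner subunit of Farsb, differed by -0.10 (SD 0.82). The other cytosolic synthetases lay between -0.45 for Hars and 0.10 for Wars. The 7 synthetases held in the multi-synthetase complex (Eprs, Iars, Kars, Lars, Mars, Qars and Rars) had a median of -0.16, with 2 above 0, and the 12 outside it had a median of -0.14, also with 2 above 0.

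The mitochondrial synthetases had a median of -0.04, and 0.08 after centring, over 15 evaluated of 16, with 7 above 0 and 8 below. Beside Nars2, Rars2, for arginine, differed by 0.61 (SD 1.30) with 13 of 19 probe sets higher and levels of 8.13 in KO and 7.88 in heterozygous KO. Yars2, for tyrosine, differed by 0.56 (SD 0.77) with 5 of 6 higher and levels of 7.34 in KO and 6.85 in heterozygous KO. Cars2, for cysteine, differed by 0.42 (SD 0.88) with 11 of 16 higher. Wars2, for tryptophan, was the lowest at -0.39 (SD 0.81), with 7 of 9 probe sets lower. The other mitochondrial synthetases lay between -0.31 for Pars2 and 0.12 for Fars2. The 9 mitochondrial translation factors outside the set had a median of 0.02. Mtrf1l, a mitochondrial release factor, was at least 2-fold higher at 1.29 (SD 1.16, 6 of 7 probe sets higher), as were 1.13% of all evaluated genes. Its levels lay closer together, at 8.24 in KO and 8.16 in heterozygous KO. Tufm, the mitochondrial elongation factor, was the lowest at -0.60 (SD 0.92).

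For 12 amino acids the mitochondrial and the cytosolic synthetase were evaluated under symbols that differ only by the final 2, and these were paired. The mitochondrial gene had the higher KO minus heterozygous KO difference in 10 of these 12 pairs, and the median gap was 0.25, from -0.49 for Wars2 against Wars to 1.63 for Nars2 against Nars. In 7 pairs the differences had opposite signs. Tyrosine gave the second widest gap, 1.31, with Yars2 at 0.56 and Yars at -0.75. Cysteine gave 0.98, arginine 0.88 and histidine 0.55, and in each of these pairs the mitochondrial gene was above 0 and the cytosolic gene below it. The exceptions were valine, where Vars2 lay at -0.14 and Vars at -0.06, and tryptophan, where Wars2 lay at -0.39 and Wars at 0.10. Genes whose symbols do not match in this way were left out of the pairs. These were Ears2 (-0.07) and Pars2 (-0.31), whose cytosolic counterpart is Eprs (0.07), so both lay lower than it. Fars2 (0.12) lay between the cytosolic subunits Farsa (-0.10) and Farsb (0.35). The pairs were noticed after their values had been seen, and no test was made. With the floor at the 75th percentile the count was 6 of 9 pairs.

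**Figure D4:**
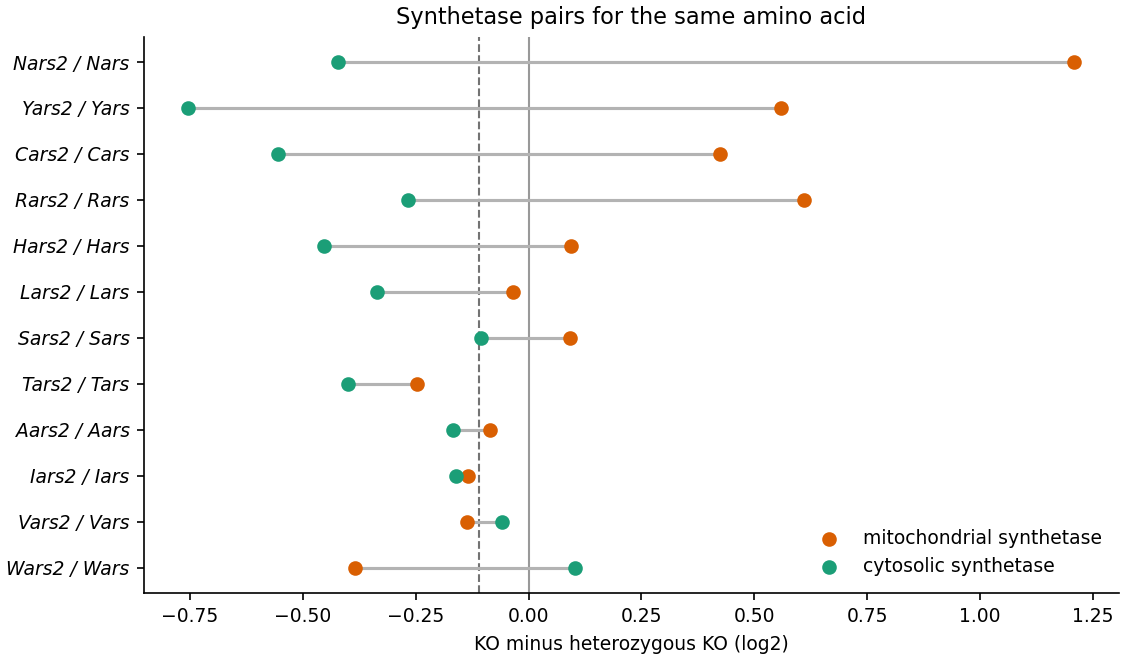
Difference between the KO and the heterozygous KO array (log2, horizontal axis) for the mitochondrial (orange) and the cytosolic (green) synthetase of the same amino acid, 1 row per pair matched by symbol. The dashed line is the median of all genes, -0.11; the orange point is to the right in 10 of 12 rows, and Vars2 / Vars and Wars2 / Wars are the exceptions.

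RefSeq promoters (build GRCm38.p6, 250 bases before to 50 after each start) were found for 75 of the 98 symbols, 92 promoters in all. They were searched on both strands for the FoxO core motif GTAAACA, which reads TGTTTAC on the other strand, and for the composite site TGATGCAA, which reads TTGCATCA there and which C/EBP and ATF4 dimers bind in stress response genes. The FoxO core was in 3 of 92 promoters (3.26%), against 1199 of 32851 promoters overall (3.65%). These 3 stretches are shown because FoxO1 is the altered gene, with the motif in capitals. They belong to Iars2 (chr1:185329485-185329514, minus strand), Vars2 (chr17:35667761-35667790, minus strand) and Eif2s3y (chrY:1010472-1010501, plus strand), whose differences were -0.13, -0.14 and -0.19.
Iars2: gccgagtgataGTAAACAcctctctctacc
Vars2: cagatgtatttTGTTTACacaccgggatat
Eif2s3y: ggctacacctaTGTTTACtgcccgttcttc

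The composite site was in 4 of 92 member promoters (4.35%), against 294 of 32851 overall (0.895%). All 4 belong to cytosolic synthetases, which makes 4 of the 12 cytosolic synthetases with a promoter. Among the listed stress response targets, 4 of 21 promoters (19.0%) held it, those of Atf3, Chac1, Slc7a11 and Vldlr. Of the synthetase stretches, 3 are shown because this site is a feature of sequence that several of them shared, and the motif is in capitals. They lie at chr4:129189895-129189924 (plus strand) for Yars, chr13:49682126-49682155 (plus strand) for Iars and chr15:11399655-11399684 (minus strand) for Tars.
Yars: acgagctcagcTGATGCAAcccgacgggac
Iars: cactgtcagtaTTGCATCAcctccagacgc
Tars: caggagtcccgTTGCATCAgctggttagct

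The 4 synthetases with the site had a median of -0.28, with -0.75 for Yars, -0.40 for Tars and -0.16 for Iars among them, and all 4 lay below the all-gene median of -0.11. The 8 other cytosolic synthetases with a promoter had a median of -0.07, from -0.28 to 0.54, and 2 of them lay below the all-gene median. The split leaves out the cytosolic synthetases for which no promoter was found, so whether those carry the site is not known. Among them were Cars (-0.55), Hars (-0.45), Nars (-0.42) and Lars (-0.33), each lower than any of the 8, while the others without a promoter lay higher. With 4 genes and 1 array per genotype this split was not tested, and a match of letters does not show that a factor binds there.

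Set beside the ribosome, the members did not share the position of the ribosomal proteins. The 46 evaluated cytosolic ribosomal protein genes had a median of 0.38, with 41 (89.1%) above 0 and 4 at least 2-fold higher. The 71 evaluated mitochondrial ribosomal protein genes had a median of 0.20, with 53 (74.6%) above 0 and 5 at least 2-fold higher. The median of the translation factors and synthetases was -0.08, with 41 of 96 (42.7%) above 0 and 2 at least 2-fold higher. Of all evaluated genes, 34.8% lay above 0 and 1.13% were at least 2-fold higher. No test of these differences was possible, since the genes of a list are not replicates.

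**Figure D5:**
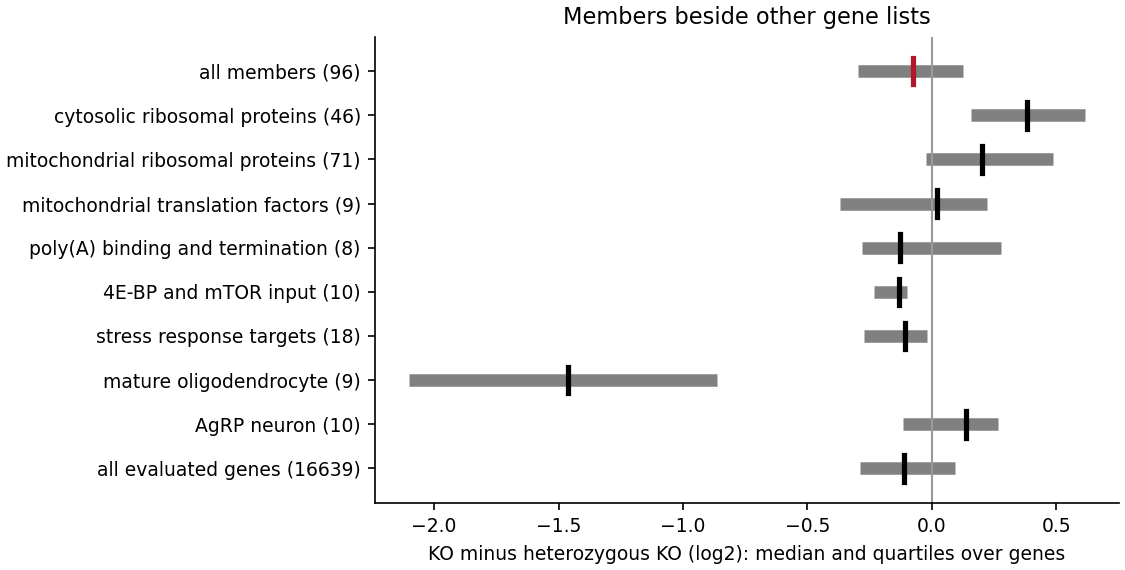
Median (black or red mark) and quartiles (grey bar) of the KO minus heterozygous KO difference (log2, horizontal axis) over the genes of each list, with the number evaluated in parentheses. The translation factors and synthetases (red, -0.08, or 0.03 after centring) lie near all evaluated genes (-0.11), the ribosomal protein lists lie to the right, and the mature oligodendrocyte markers lie far to the left (-1.46).

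The labels were checked on genes outside the set. Foxo1 read 7.46 in KO and 7.98 in heterozygous KO, with 8 of 8 probe sets lower and a difference of -0.48 (SD 0.53). Gpr17, which the study's title names as a FoxO1 target, read 6.40 in KO and 8.67 in heterozygous KO, a difference of -2.10 (SD 1.48). Agrp read 12.44 in KO and 11.97 in heterozygous KO, a difference of 0.27. Npy read 12.19 in KO and 12.31 in heterozygous KO, although its difference was 0.14. Both arrays thus carried these 2 markers of the named neurons. Over the 10 listed AgRP neuron markers the median was 0.14, with 6 above 0 and 4 below. They ran from -0.60 for Ghsr to 0.52 for Mc3r. The arrays also differed in glial markers. All 9 evaluated mature oligodendrocyte markers of 10 lay below 0, with a median of -1.46 and 6 at least 2-fold lower, and their levels ran from 5.89 to 8.68 in KO and from 6.32 to 9.52 in heterozygous KO. All 8 oligodendrocyte precursor markers, Gpr17 among them, lay below 0 with a median of -1.05, and their levels ran from 6.26 to 8.47 in KO and from 7.54 to 9.25 in heterozygous KO. The medians of other cell types lay nearer 0, at -0.19 for astrocytes (7 genes), -0.14 for microglia (6), -0.32 for vessels (4 of 5) and -0.23 for other hypothalamic neurons (9 of 10). In that last list 3 genes were at least 2-fold lower. Slc17a6, the vesicular glutamate transporter of excitatory neurons, read 5.40 in KO and 9.11 in heterozygous KO, a difference of -4.29 (SD 2.32) that was the lowest of all evaluated genes. Tac1, a tachykinin precursor, differed by -2.20 (SD 1.95) and Oxt, the oxytocin precursor, by -1.01 (SD 2.57). The levels of the 9 genes ran from 5.40 to 9.67 in KO and from 6.37 to 9.84 in heterozygous KO. The part of glial cells, other neurons or other cells in the differences of the translation genes was not tested.

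The disagreement among probe sets sets how far any of these values can be read. Over the members the SD over probe sets ran from 0.24 for Eef1a1 to 2.10 for Eif2ak3, with a median of 0.76, so for most members the difference was smaller than the spread of the gene's own probe sets. Of the 2138 probe sets of members, 1771 (82.8%) were used, against 67.8% of all single-symbol probe sets. Among those used, 55.2% were lower in KO by any amount, against 57.4% of all single-symbol probe sets that were used. Counts of lower probe sets for a gene are read beside that share. Of the used member probe sets, 12.0% were at least 2-fold lower and 9.09% at least 2-fold higher in KO. The shares over all used single-symbol probe sets were 11.0% and 9.24%. Across the 96 members the difference correlated with the level at r = -0.08 and with the number of probe sets used at r = -0.17, which share the same 2 arrays.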

How the data were processed

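Total RNA of sorted AgRP neurons was measured on 2 exon-level arrays, grouped by their labels. Per the labels' protocols, RNA was extracted with Trizol and labelled by a Nugen protocol. The deposited values, 1 for each probe set on each array, were taken by their range to be on the log2 scale (2.55 to 14.1 in KO, 2.53 to 14.1 in heterozygous KO). Per the submitters' processing notes, RMA and Partek were used, with no versions. RMA as usually run gives both arrays 1 distribution, which hides a change in total RNA. A genome build for the array annotation was not given in the sources used here.

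Of 1235936 probe sets, 318760 had 1 symbol in the platform annotation, 6684 several and 910492 none. Only those with 1 symbol were used. Gene differences, the floor, the minimum of 3 probe sets and the call rules were computed with Python 3.11.15, numpy 2.4.6 and pandas 2.3.3, and tested on simulated data. No p-value, SE or interval is given, because 1 array per genotype leaves no error between animals, and precision is limited by how few arrays there are. Of the 98 symbols, 90 are current in the RefSeq mouse gene table (GRCm38.p6, names only) and 8 are older symbols. Promoter sequences are RefSeq's of that build, and 1 stretch that holds a motif is not reported here.

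The members, role groups and gene lists were chosen with earlier results of these data known. The naming rule took all members past 2-fold, the highest and lowest of each role group with up to 4 more, set isoform families, and the highest and lowest of each pathway list. Beyond it, all eIF3 subunits, further synthetases, Atf4, Slc17a6, Tac1, Oxt and single probe sets were named after their values were seen; the octamer grouping, the synthetase pairs and the split by motif were added after values were seen. Alternatives changed the floor, the probe-set minimum, the summary, the scaling and the fold.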

Additional observations from a re-analysis of the deposited data

How the results depend on the processing

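No paired analysis was possible because each genotype has 1 array. Of 953 member values under 10 alternatives, 951 kept their side of the 2-fold rule, and the 2 that lost the call were Nars2 at 0.33 (both arrays at or above the floor) and 0.98 (mean over probe sets). Of the 96 members, 69 had 1 sign in every setting; the others, none of them past 2-fold, changed sign in at least 1. Members at least 2-fold higher numbered 1 with the floor at the 75th percentile, where Nars2 was not evaluated, with both arrays at or above the floor, and with the mean over probe sets; members lower numbered 3 under the 1.5-fold rule. The median difference of members ran from -0.10 to 0.03. Over all genes, 188 were higher and 186 lower. These counts became 118 and 113 with both arrays at or above the floor, 338 and 329 with at least 1 probe set, 545 and 815 at 1.5-fold, 270 and 127 after centring, and 229 and 150 with the trend on level removed. Members with 75% of probe sets lower numbered 9 after centring, when 15 were higher; over all genes centring gave 2590 higher and 2252 lower, and at least 1 probe set gave 2899 higher. Pairs with the mitochondrial synthetase higher numbered 6 of 9 with the floor at the 75th percentile, 8 of 12 with both arrays at or above the floor, and 9 to 11 otherwise. The cause of these shifts was not tested. Dim probe sets, 1 array per genotype and the markers of glia and of other neurons that differed between the arrays limit every value.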
